A study of Homo sapiens with 6 samples.

Results

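The matrix metalloproteinase (MMP), ADAM, ADAMTS, tolloid and TIMP gene families were examined in CI-huVEC, an immortalised endothelial line made from the human umbilical vein. Every row of the count table whose symbol was MMP, ADAM, ADAMTS or TIMP followed by a number was taken, together with BMP1, TLL1 and TLL2. This gave 70 of 28514 rows, made up of 22 MMP, 22 ADAM, 19 ADAMTS, 3 tolloid and 4 TIMP genes. The choice used gene names and no measured value. Messenger RNA had been sequenced from 3 wild-type samples (WT 1, WT 2 and WT 4). It had also been sequenced from 3 clonal lines of genotype CCM3 -/- (K17, K18 and K19). In these clones CRISPR/Cas9 editing had been aimed at exon 3 of CCM3. CCM3 is the disease name of PDCD10, a gene mutated in familial cerebral cavernous malformations. All 6 lines were at passage 31 and carried the same clone label, HKO, which the labels do not explain. Since every knockout line is a clone, the loss of CCM3 and clonal differences cannot be told apart for any gene. The labels do not say whether the samples of a group were grown separately. The p-values therefore measure only the spread among these 6 samples, and some of it may be technical.

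These families remodel the matrix and the cell surface. MMPs are zinc proteases that cut collagens, basement membrane and other proteins, either after secretion or from the cell membrane. ADAMs are membrane proteins, many of which release the ectodomains of receptors, ligands and adhesion proteins, while ADAMTS proteases are secreted and act on proteoglycans, procollagens and von Willebrand factor. Tolloids process procollagens and free BMPs from chordin. TIMPs bind and inhibit MMPs and some ADAM and ADAMTS proteases. In mice with endothelial loss of CCM genes, cleavage of the proteoglycan versican by ADAMTS proteases is known to contribute to the vascular lesions.

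Depth was 28280417 to 32919491 counts per library, and levels are CPM, the deposited counts scaled to library size with TMM factors. On that scale 3 counts corresponded to 0.0903 to 0.108 CPM. CCM3 itself (PDCD10) measured 60.5, 60.7 and 61.6 CPM in the wild type against 42.3, 31.6 and 37.6 CPM in the clones K17, K18 and K19, a decrease of 0.71 in log2 units (adjusted p = 0.00374 by edgeR), and a gene count does not show the edit in exon 3 itself. Of the 70 family genes, 54 had at least 1 count and 16 had none in any library. The low-count filter kept 36 for testing, and a gene was called when its adjusted p in the edgeR quasi-likelihood test was below 0.05. Over all 14548 genes tested, 38.7% were called, with 18% called higher and 20.8% called lower. Of the 36 family genes 10 rose and 9 fell, together 52.8%, and 17 were not called. Their median log2 fold change was 0.12, beside 0.00 for all genes tested. The CPM of the groups did not overlap for 19 of the 36, and for 55.5% of all genes tested. Endothelial markers were present, with 9 of 11 higher, none lower and CDH5 and ERG not called. Other cell types were represented by lists of smooth muscle and pericyte, fibroblast, leukocyte and epithelial markers. The 9 smooth muscle and pericyte markers summed to 382 to 399 CPM in the wild type against 46.8 to 78.5 CPM in the knockouts, most of it RGS5 in the wild type and TAGLN in the knockouts, with 1 of 5 tested higher and 3 lower, while PDGFRB had at most 6 counts and DES at most 2 in any library. The 6 fibroblast markers summed to 3.79 to 4.40 CPM and 0.614 to 9.16 CPM, with 2 tested and none called, and the upper end was K19, where COL1A1 had 101 counts. The 6 leukocyte markers summed to 20.2 to 24.3 and 38.2 to 43.8 CPM, mostly CD68, with 1 of 2 tested higher. The 6 epithelial markers summed to 243 to 262 and 352 to 629 CPM, mostly KRT18, with 3 of 4 tested higher and CDH1 at 0 in all libraries. The part of such cells in the results was not tested, and in bulk samples fewer cells of a type and less RNA per cell cannot be told apart.

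The DNA before the start of 6 family genes is shown because the results below turn on them and the sequences let their differences be seen. MMP10, TLL1 and ADAMTS12 fell in all clones, TIMP1 and ADAM15 rose in all clones, and ADAMTS18 was far below the wild type in K18 and K19 only. Each line gives the 250 bases before the gene start from RefSeq, written 5′ to 3′ on the strand of the gene. Capitals mark matches on either strand to TGANTCA, a loose pattern for sites of AP-1 factors in which N is any base. They also mark matches to CCNCNCCC, a site of KLF and SP factors, and matches may overlap each other.

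MMP10, GRCh38.p14, chr11:102780629-102780878, minus strand: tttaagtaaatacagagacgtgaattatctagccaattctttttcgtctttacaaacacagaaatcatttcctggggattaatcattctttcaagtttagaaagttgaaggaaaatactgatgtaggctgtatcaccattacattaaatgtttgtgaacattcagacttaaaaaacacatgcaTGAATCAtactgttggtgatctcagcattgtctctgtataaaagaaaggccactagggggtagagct

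TLL1, GRCh38.p14, chr4:165872987-165873236, plus strand: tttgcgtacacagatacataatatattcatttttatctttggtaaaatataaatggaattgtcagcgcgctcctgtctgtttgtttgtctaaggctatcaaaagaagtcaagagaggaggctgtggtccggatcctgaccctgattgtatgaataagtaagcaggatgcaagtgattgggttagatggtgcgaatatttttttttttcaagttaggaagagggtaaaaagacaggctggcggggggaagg

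ADAMTS12, GRCh38.p14, chr5:33891991-33892240, minus strand: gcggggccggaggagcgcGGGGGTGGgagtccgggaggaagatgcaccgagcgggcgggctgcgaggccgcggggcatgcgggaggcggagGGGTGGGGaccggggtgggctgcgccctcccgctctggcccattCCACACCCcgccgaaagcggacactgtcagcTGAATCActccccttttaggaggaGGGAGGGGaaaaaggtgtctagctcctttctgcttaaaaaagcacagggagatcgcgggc

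TIMP1, GRCh38.p14, chrX:47582186-47582435, plus strand: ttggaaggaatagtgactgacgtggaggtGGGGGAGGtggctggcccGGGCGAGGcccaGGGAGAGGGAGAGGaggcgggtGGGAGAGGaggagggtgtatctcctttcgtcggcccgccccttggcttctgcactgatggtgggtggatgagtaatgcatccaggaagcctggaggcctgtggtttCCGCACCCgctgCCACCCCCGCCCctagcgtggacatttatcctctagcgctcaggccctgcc

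ADAM15, GRCh38.p14, chr1:155051066-155051315, plus strand: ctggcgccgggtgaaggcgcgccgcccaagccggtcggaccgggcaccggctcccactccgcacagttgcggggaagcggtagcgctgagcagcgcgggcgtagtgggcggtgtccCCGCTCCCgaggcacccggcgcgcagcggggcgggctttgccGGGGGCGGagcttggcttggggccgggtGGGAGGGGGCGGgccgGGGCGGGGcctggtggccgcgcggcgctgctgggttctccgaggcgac

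ADAMTS18, GRCh38.p14, chr16:77435035-77435284, minus strand: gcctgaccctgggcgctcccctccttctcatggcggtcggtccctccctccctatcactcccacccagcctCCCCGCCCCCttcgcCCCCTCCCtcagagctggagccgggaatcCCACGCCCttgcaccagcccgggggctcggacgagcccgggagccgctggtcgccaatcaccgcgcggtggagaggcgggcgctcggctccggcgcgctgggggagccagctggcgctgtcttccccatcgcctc

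The AP-1 motif stood 67 bases before the start of MMP10 and 84 bases before that of ADAMTS12, in both as TGAATCA. It occurred in the same window of 6.6% of 27305 genes in the RefSeq table. Of the 40 family genes with a sequence there, 4 held it, and among the 21 that were also tested only MMP10 and ADAMTS12 did. Only exact matches were counted, so near variants, such as the unmarked TGAGTAA in the TIMP1 window, were left out. The KLF motif was common, in 52.4% of all genes, in 28 of the 40 family genes and in 18 of the 21. The 21 had passed the count filter, whereas the share of all genes was not limited in that way. Only 4 of the 10 genes that rose had a sequence there, and all 4 held the motif. It was also in 4 of the 6 that fell and in 10 of the 11 not called. Among the genes that rose TIMP1 had 8 matches, ADAM15 5, ADAM19 3 and ADAMTS17 1. Among those that fell ADAMTS12 and ADAM23 had 4 each, ADAM12 and ADAMTS6 2 each, and MMP10 and TLL1 none. Those not called ranged from 0 for ADAM22 to 8 for ADAMTS10, with 7 for ADAMTS7, 6 for MMP11 and 4 for ADAMTS18. The windows of MMP10 and TLL1 held 34.4% and 40.4% GC, against 79.6% for ADAM15. A match is a run of letters and not a measured binding site.

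**Figure D1:**
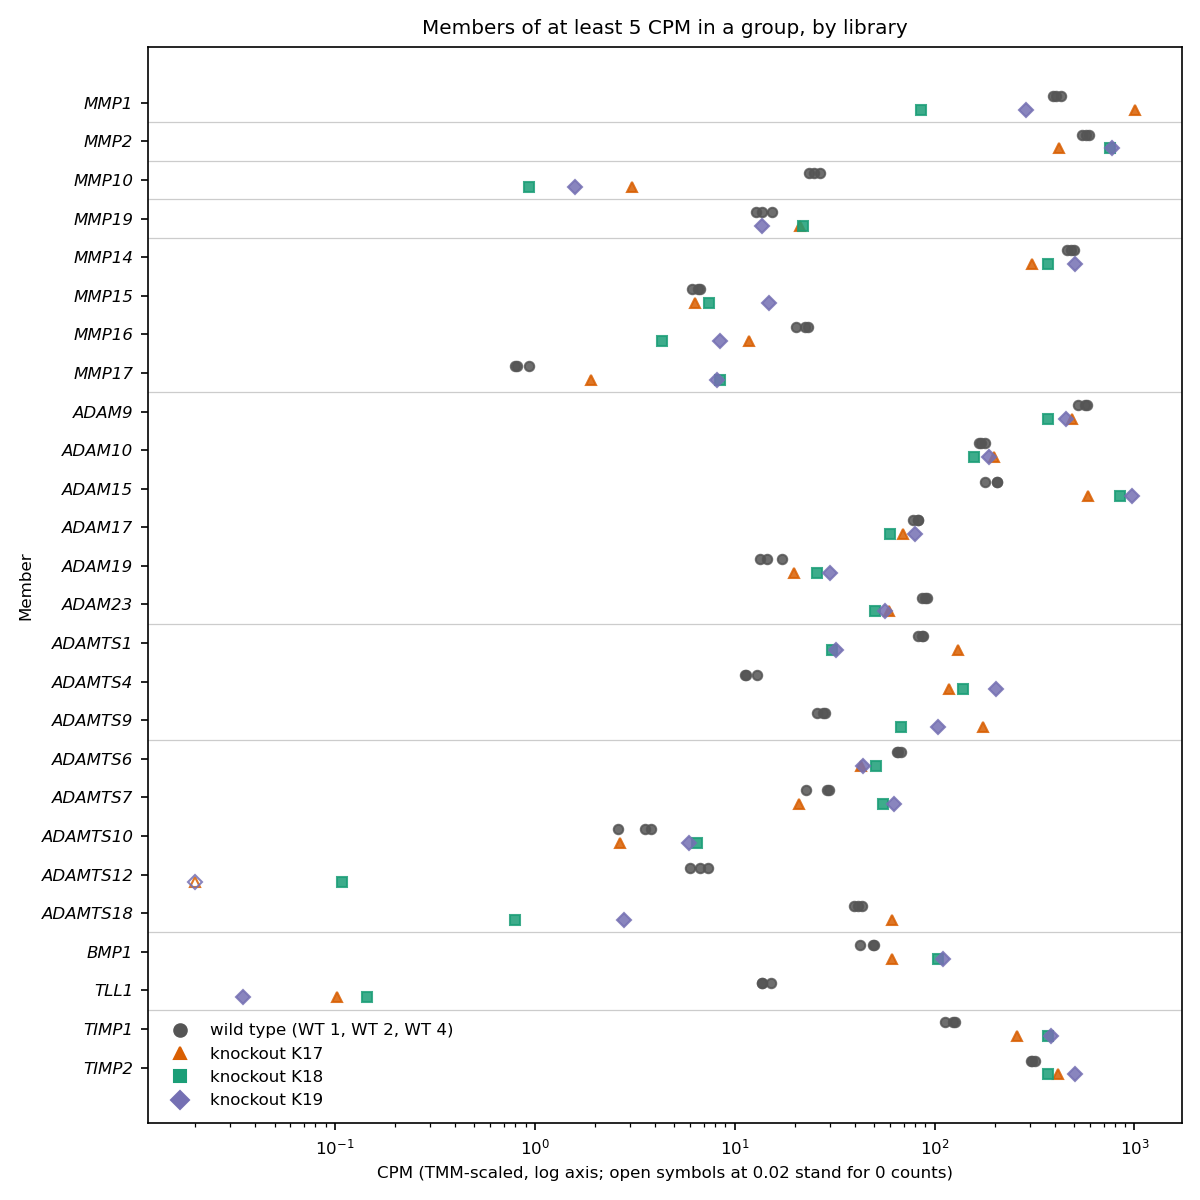
CPM on a log axis of the 26 family genes with a mean of at least 5 CPM in a group. Each symbol is a library (grey circles wild type, coloured symbols the knockout clones), and open symbols at the left edge stand for 0 counts. The wild-type libraries lie close together, whereas the clones spread widely for MMP1, ADAMTS1 and ADAMTS18.

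Compared per length, the most abundant family transcripts in the wild type were those of secreted and membrane-type MMPs. MMP1, the interstitial collagenase, stood at 161 ± 6.66 FPKM (mean ± SD, n = 3), MMP2, also called gelatinase A, at 130.4 ± 4.21 and MMP14, the membrane-type protease that activates MMP2, at 109.7 ± 3.84. ADAM9 reached 109.5 ± 4.92 FPKM, a level that differed from that of MMP14 by less than the spread between libraries. The inhibitor genes TIMP2 and TIMP1 followed at 68.7 ± 1.06 and 62.0 ± 3.54 FPKM, then ADAM10 at 35.4 ± 1.34 and ADAM15 at 35.2 ± 2.72, which lay within their spread. The other collagenases were not detected, as MMP8 and MMP13 had 0 counts in every library.

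The collagenase gene MMP1 differed more between clones than between the groups. It measured 432, 390.3 and 404 CPM in the wild-type samples WT 1, WT 2 and WT 4. The clones K17, K18 and K19 measured 1006, 85.9 and 287 CPM. K17 lay above every wild-type library and the other two clones below, an 11.7-fold range among the knockouts. The log2 fold change was 0.17 with a 95% interval of -1.70 to 2.04 (adjusted p = 0.875 by edgeR), and without K17 it was -1.12 (adjusted p = 0.201). The gelatinase gene MMP2 measured 589, 570.0 and 545 CPM in the wild type against 421, 754 and 774 CPM in the clones K17, K18 and K19, so that here K17 was the lowest library and the other clones were the highest. The log2 difference, 0.19, was not called (adjusted p = 0.513), but without K17 it was 0.43 (adjusted p = 8.3e-05), in a fit that called 62.6% of all genes. MMP9, the other gelatinase gene, had at most 3 counts in any library.

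Among the stromelysin genes MMP10 fell. This secreted protease, stromelysin-2, cuts proteoglycans and laminin and activates other MMPs. It measured 26.8, 23.4 and 25.0 CPM in the wild type against 3.06, 0.940 and 1.59 CPM in the clones K17, K18 and K19. All clones were far below the wild type, by 3.74 in log2 units (SE 0.39, adjusted p = 0.00101 by edgeR). MMP10 and MMP1 are adjacent among the family genes on chromosome 11, which carries 12 of the 70. MMP1, with 38914 wild-type and 40204 knockout counts, and MMP10, with 2388 and 162, were the 2 of these 12 that passed the filter. Of the others, MMP7 (matrilysin), MMP3 (stromelysin-1) and ADAMTS8 held at most 4 counts in any library, with MMP3 and ADAMTS8 seen in K19 alone, and MMP8, MMP12, MMP13, MMP20, MMP26, MMP27 and ADAMTS15 had 0 counts in all libraries. MMP11, or stromelysin-3, was level at 4.08 ± 0.331 and 4.06 ± 1.32 CPM (adjusted p = 0.984). After removal of each library's trend on GC content it was called lower, at -0.54 (adjusted p = 0.0256).

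Other secreted MMP genes were at low levels. MMP28, which codes for epilysin, rose from 0.242, 0.421 and 0.242 CPM in the wild type to 2.90, 2.31 and 2.25 CPM in the clones. With 29 wild-type counts against 214 knockout counts the ratio was 8.17, with an exact 95% counting interval of 5.53 to 12.5, and the adjusted p was 0.000509 by edgeR. TAF15, at 241 and 208 CPM, overlaps MMP28 on the opposite strand, and whether counting used strand is not given in these sources. MMP19 stood at 14.0 ± 1.30 CPM in the wild type against 21.2, 21.9 and 13.7 CPM in the clones K17, K18 and K19. The log2 difference, 0.44, was not called (adjusted p = 0.119), but without K19 MMP19 was called higher, at 0.64 (adjusted p = 0.0120). MMP12, MMP20, MMP26 and MMP27 had 0 counts in every library, and MMP21 had at most 2.

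All 6 membrane-type MMP genes were tested, and MMP17 rose while MMP16 fell. MMP17, a protease with a lipid anchor, went from 0.937, 0.813 and 0.796 CPM to 1.91, 8.49 and 8.13 CPM. All clones were above the wild type, with K17 well below the other clones, and the log2 fold change was 2.85 (SE 0.58, adjusted p = 0.0110 by edgeR). The value was 1.94 (adjusted p = 0.00239) after GC-trend removal, and without WT 4 the call ended (adjusted p = 0.0526). MMP16 went from 22.4, 20.3 and 23.2 CPM to 11.8, 4.34 and 8.47 CPM. It fell by 1.42 in log2 units (adjusted p = 0.0184), and this call was lost on leaving out WT 1, WT 2, WT 4 or K19 (adjusted p = 0.0635, 0.0531, 0.0673 and 0.0573). MMP14 measured 500.5, 479 and 459.5 CPM in the wild type against 309, 369 and 503 CPM in the clones K17, K18 and K19. In CPM K19 lay just above WT 1, the highest wild-type library. In FPKM K19 (109.4) lay below WT 1 (113.2) and WT 2 (110.4). The groups overlapped, with a difference of -0.28 (adjusted p = 0.225). MMP14 was called lower without K19, at -0.48 (adjusted p = 0.0128), and after GC-trend removal, at -0.62 (adjusted p = 0.00645). MMP15, MMP24 and MMP25 were not called, although MMP25 was called lower after GC-trend removal (-1.14, adjusted p = 0.00481). MMP15 and MMP24 were highest in K19, at 14.8 and 3.67 CPM against 6.47 ± 0.340 and 1.24 ± 0.128 CPM in the wild type.

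**Figure D2:**
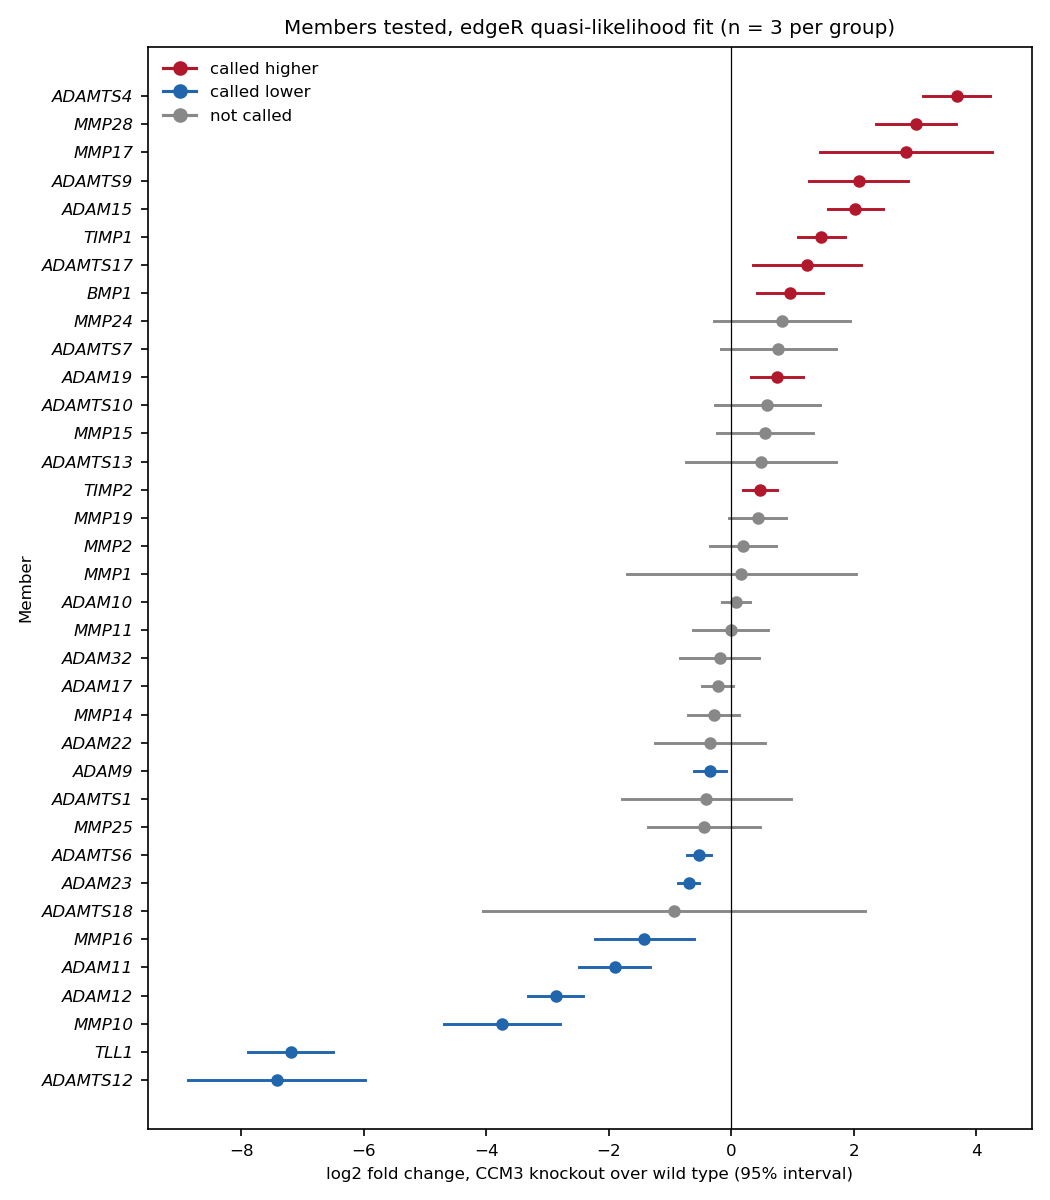
Log2 fold change (CCM3 knockout over wild type) of the 36 family genes tested, with the 95% interval of the edgeR quasi-likelihood fit, sorted by value. ADAMTS4 is highest at 3.68 and ADAMTS12 lowest at -7.42, and the widest interval is that of ADAMTS18, from -4.06 to 2.18.

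Of the 10 ADAM genes tested, ADAM15 and ADAM19 rose and 4 fell. ADAM15 codes for a membrane protease with an integrin-binding disintegrin domain that is found at endothelial junctions. It measured 205, 205 and 178 CPM in the wild type against 589, 842 and 969.8 CPM in the clones K17, K18 and K19. Each clone was above every wild-type library, with a log2 fold change of 2.03 (SE 0.19, adjusted p = 0.000613 by edgeR), and of 1.51 (adjusted p = 2.88e-05) after GC-trend removal. ADAM19, or meltrin beta, rose from 17.17, 13.45 and 14.47 CPM to 19.75, 25.91 and 29.94 CPM (log2 fold change 0.75, adjusted p = 0.0183). Its call ended without WT 2 or WT 4 (adjusted p = 0.0731 and 0.0770), and CYFIP2, which overlaps it on the opposite strand, measured 30.4 and 62.4 CPM.

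Of the genes for the main sheddases ADAM10 and ADAM17 were not called, and ADAM9 fell slightly. ADAM10, which cuts Notch receptors and VE-cadherin, measured 170.4, 167 and 179 CPM in the wild type against 199, 157 and 188 CPM in the clones. The difference of 0.08 was not called (95% interval -0.15 to 0.30, adjusted p = 0.523), although after GC-trend removal it was 0.27 (adjusted p = 0.0151). ADAM17, the TNF-alpha converting enzyme, measured 82.8, 77.9 and 83.1 CPM in the wild type against 69.6, 59.8 and 79.6 CPM in the clones, and was not called (-0.22, 95% interval -0.48 to 0.04, adjusted p = 0.144). ADAM9 fell from 578, 522 and 564 to 486, 369 and 453 CPM, by 0.35 in log2 units (adjusted p = 0.0450). This call ended in 5 of the 6 fits that left out a library (all but that without K17) and after GC-trend removal (-0.12, adjusted p = 0.227).

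The remaining ADAM calls were decreases. ADAM23, which lacks protease activity and acts in adhesion, fell from 91.6, 89.7 and 86.5 CPM to 58.9, 50.3 and 56.3 CPM. The clones agreed closely and all lay below the wild type, by 0.70 in log2 units (SE 0.07, adjusted p = 0.000992 by edgeR). ADAM11, a related gene without protease activity, fell from 1.31 ± 0.268 to 0.349 ± 0.0108 CPM (adjusted p = 0.00179), with exactly 10 counts in each clone. ADAM12, or meltrin alpha, an active protease, fell from 2.32 ± 0.172 to 0.314 ± 0.00974 CPM, with 9 counts in each clone and 63 to 83 in the wild-type libraries. ADAM22, also without protease activity, was not called (1.51 ± 0.136 and 1.19 ± 0.625 CPM), nor was ADAM32. Of the 12 ADAM genes left untested, 7 (ADAM2, ADAM5, ADAM6, ADAM7, ADAM18, ADAM29 and ADAM30, several of them testis genes or pseudogenes) had 0 counts, and the other 5 had at most 19 counts in any library. ADAM28 had 7 counts in the wild type and 0 in the clones.

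ADAMTS genes that act on versican and related proteoglycans included ADAMTS4, the tested family gene with the highest log2 fold change. This gene, for aggrecanase-1, measured 13.0, 11.2 and 11.5 CPM in the wild type against 118, 138 and 202 CPM in the clones K17, K18 and K19. The lowest clone was far above the highest wild-type library. The log2 fold change was 3.68 (SE 0.23, adjusted p = 0.000159 by edgeR), or 12.8-fold. It remained between 3.12 and 3.85 in every setting run. ADAMTS9 rose from 28.3, 27.6 and 25.9 CPM to 174, 67.6 and 104 CPM, again without overlap, by a log2 fold change of 2.08 (SE 0.33, adjusted p = 0.00471). Here K17 was the highest clone.

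ADAMTS1, the third proteoglycanase gene tested, did not follow ADAMTS4 and ADAMTS9. It measured 87.1, 87.0 and 83.0 CPM in the wild type, whereas its values were 131, 30.9 and 32.2 CPM in the clones K17, K18 and K19. K17 was above the wild type and the other two clones were below, and the log2 fold change of -0.40 was not called (95% interval -1.78 to 0.97, adjusted p = 0.591). Without K17 it was called lower, at -1.44 (adjusted p = 6.91e-07). ADAMTS5, or aggrecanase-2, had 0 counts in every library, as did ADAMTS15 and ADAMTS20, and ADAMTS8 had 1 count in all. A count of 0 allows up to 3 counts, which is 0.0903 to 0.108 CPM depending on the library. The procollagen N-proteinase genes ADAMTS2, ADAMTS3 and ADAMTS14 had at most 2 counts in any library.

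ADAMTS12 was nearly absent from the knockout clones. It codes for a protease that cuts cartilage oligomeric matrix protein. There were 199, 222 and 213 counts in the wild-type libraries, 3 in K18 and 0 in K17 and K19. The wild-type level was 6.02, 6.68 and 7.37 CPM, and the ratio of wild type to knockout was 191, with an exact 95% counting interval of 65.0 to 928 (adjusted p = 0.000378 by edgeR). Its relative ADAMTS7 measured 29, 29.6 and 22.8 CPM in the wild type against 20.9, 55.0 and 62.7 CPM in the clones. It was not called (0.77, adjusted p = 0.158). Without K17 it was at 1.12 (adjusted p = 0.000111), but after GC-trend removal at -0.01 (adjusted p = 0.957). MORF4L1, at 377 and 340.3 CPM, overlaps ADAMTS7 on the opposite strand.

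The other ADAMTS genes included calls in both directions. ADAMTS6, which acts on fibrillin microfibrils, fell from 64.7, 65.7 and 68.2 CPM to 42.9, 50.9 and 43.9 CPM. No clone reached the wild-type range, and the decrease was 0.53 in log2 units (SE 0.08, adjusted p = 0.00383 by edgeR). ADAMTS10, its closest relative, was higher in K18 and K19 (6.47 and 5.95 CPM) and not in K17 (2.66 CPM) than in the wild type (3.33 ± 0.645 CPM), and was not called (adjusted p = 0.222), with the sign turning to -0.11 after GC-trend removal. ADAMTS13, the protease of von Willebrand factor, likewise measured 1.22 ± 0.144 CPM in the wild type against 0.579, 1.88 and 2.70 CPM in the clones (0.49, adjusted p = 0.467), with a value of -0.20 after GC-trend removal. ADAMTS17 rose from 4 to 9 counts in the wild-type libraries to 11 to 17 in the clones (adjusted p = 0.0378). That call was lost without any library other than K17, and in 3 of the 7 other settings that could test it.

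ADAMTS18 was split between the clones. It measured 39.7, 41.5 and 43.3 CPM in the wild type, 61.3 CPM in K17, and only 0.795 CPM in K18 and 2.80 CPM in K19. K17 had the highest level of all 6 libraries, 77.1-fold that of K18. The log2 fold change of -0.94 was not called (adjusted p = 0.581), whereas without K17 the value was -4.51 (adjusted p = 0.000439).

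Of the tolloid genes BMP1 rose and TLL1 fell. BMP1, the procollagen C-proteinase, went from 49.2, 49.99 and 42.2 CPM to 61.3, 104 and 110.1 CPM, a log2 fold change of 0.96 (SE 0.22, adjusted p = 0.0176 by edgeR). The value was 0.51 (adjusted p = 0.00117) after GC-trend removal, and the call was lost on leaving out WT 1, WT 2 or WT 4 (adjusted p = 0.0611, 0.0562 and 0.0752). TLL1, a chordin-cutting protease close to BMP1, had 454, 458 and 439 counts in the wild type and 3, 4 and 1 in the clones. The ratio of 152 had an exact 95% counting interval of 77.2 to 354. TLL2 had at most 7 counts in any library.

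The inhibitor genes TIMP1 and TIMP2 both rose. TIMP1 measured 123, 127 and 113 CPM in the wild type against 257, 368 and 384 CPM in the clones K17, K18 and K19. Every clone was above the wild type, by a log2 fold change of 1.48 (SE 0.16, adjusted p = 0.00106 by edgeR). TIMP1 is X-linked and lies within the neuronal gene SYN1, on the opposite strand, which was at 0.110 and 0.291 CPM. TIMP2, which also takes part in activating MMP2, rose from 318, 308 and 304 CPM to 413, 369.6 and 505 CPM, by 0.47 (SE 0.11, adjusted p = 0.0207). The TIMP2 call was lost on leaving out WT 1, WT 2 or WT 4 (adjusted p = 0.0681, 0.0746 and 0.0827). TIMP3, the matrix-bound inhibitor of ADAM17 and ADAMTS proteases, was too low to test. It had 1 count in each wild-type library and 24, 2 and 47 in K17, K18 and K19, a ratio of 27.0 with a counting interval of 8.87 to 134. TIMP4 had at most 4 counts in any library.

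The level of inhibitor transcripts was also set against that of 3 abundant MMP genes. The summed FPKM of TIMP1 and TIMP2 divided by that of MMP1, MMP2 and MMP14 was 0.318, 0.338 and 0.322 in WT 1, WT 2 and WT 4. It was 0.397, 0.927 and 0.761 in K17, K18 and K19. The groups did not overlap. The exact permutation test gave p = 0.1 (two-sided), the smallest that 3 against 3 allows whatever the values. TIMP1 and TIMP2 had each been called higher in these same libraries, so the ratio gives no support separate from those calls. The summed FPKM of all MMP genes was 422.2 ± 12.7 in the wild type and 420.9 ± 139 in the knockouts. The ratio of K17, where MMP1 was at its highest, lay closest to the wild type.

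**Figure D3:**
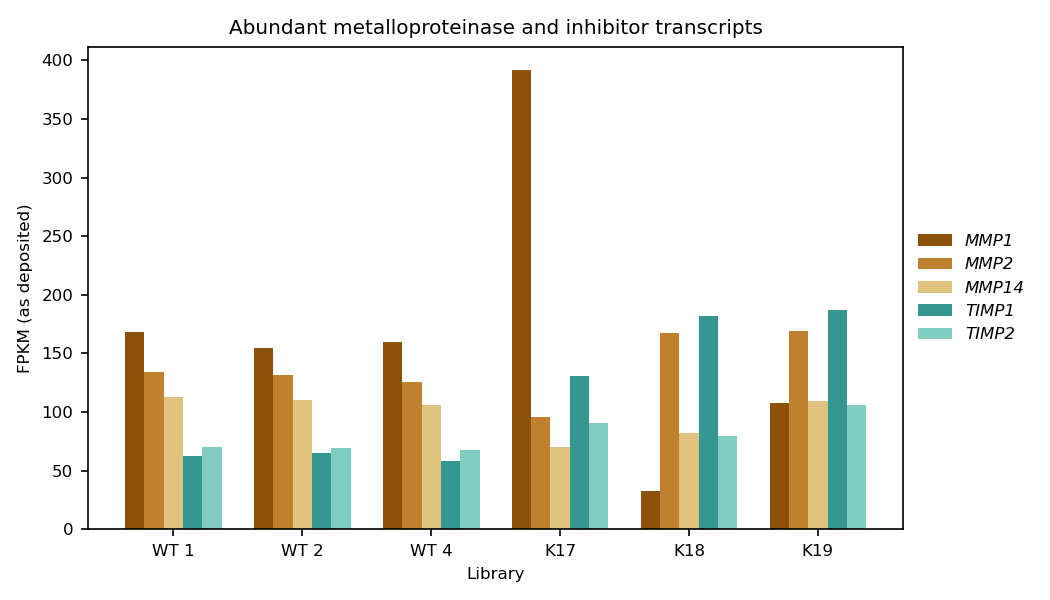
FPKM of 3 abundant MMP genes and of TIMP1 and TIMP2 in each library, as deposited, 1 bar per gene and library. TIMP1 bars are higher in all clones than in any wild-type library, while the MMP1 bar ranges from 32.7 FPKM in K18 to 392 in K17.

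The spread of the clones in these families was set beside that of all genes, as a description with no test. Over the 23 family genes tested with a mean of at least 5 CPM, the median SD of log2 CPM (0.1 added) among the clones was 0.402, against 0.153 over all 10776 genes of that level. Among the wild-type samples it was 0.076 and 0.054. Between K17 and K18, 7 of the 23 differed by more than 2-fold (30.4%, against 7.05% of all genes of that level). Between K17 and K19 6 did so (26.1% against 6.39%), and between K18 and K19 3 did (13% against 1.69%). Of the 36 tested family genes K17 was the highest clone for 12 and the lowest for 19 (33.3% and 52.8%, against 39.5% and 41.1% of all genes tested). K19 was the highest for 16 and the lowest for 4 (44.4% and 11.1%, against 30.5% and 28.4%), and K17 and K19 tied as lowest for ADAMTS12. Leaving out K17 raised the family genes called to 16 higher and 12 lower, while the share called over all genes rose to 62.6% (32.2% higher and 30.3% lower). The 9 genes gained were MMP2, MMP15, MMP24, ADAM22, ADAMTS1, ADAMTS7, ADAMTS10, ADAMTS13 and ADAMTS18.

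The calls above that were lost or gained in other fits stand beside these shares of all genes called. Without WT 1, WT 2 and WT 4 the shares were 20.9% (9.61% higher, 11.3% lower), 22.8% (10.1% and 12.7%) and 20.4% (9.26% and 11.1%). Without K18 they were 30.2% (14.8% and 15.4%), and without K19 30.3% (14.4% and 15.9%). After GC-trend removal 43.2% were called. The median GC content was 57.8% for the family genes that rose and 45.5% for those that fell, against 49.6% for all genes tested. The share was 37.6% with DESeq2 size factors, 39% with library totals, 25.4% with no filter and 39.5% with a filter of 1 CPM. It was 35.9% with the DESeq2 Wald test, 37.8% with limma-voom and 38.4% with limma on FPKM.

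**Figure D4:**
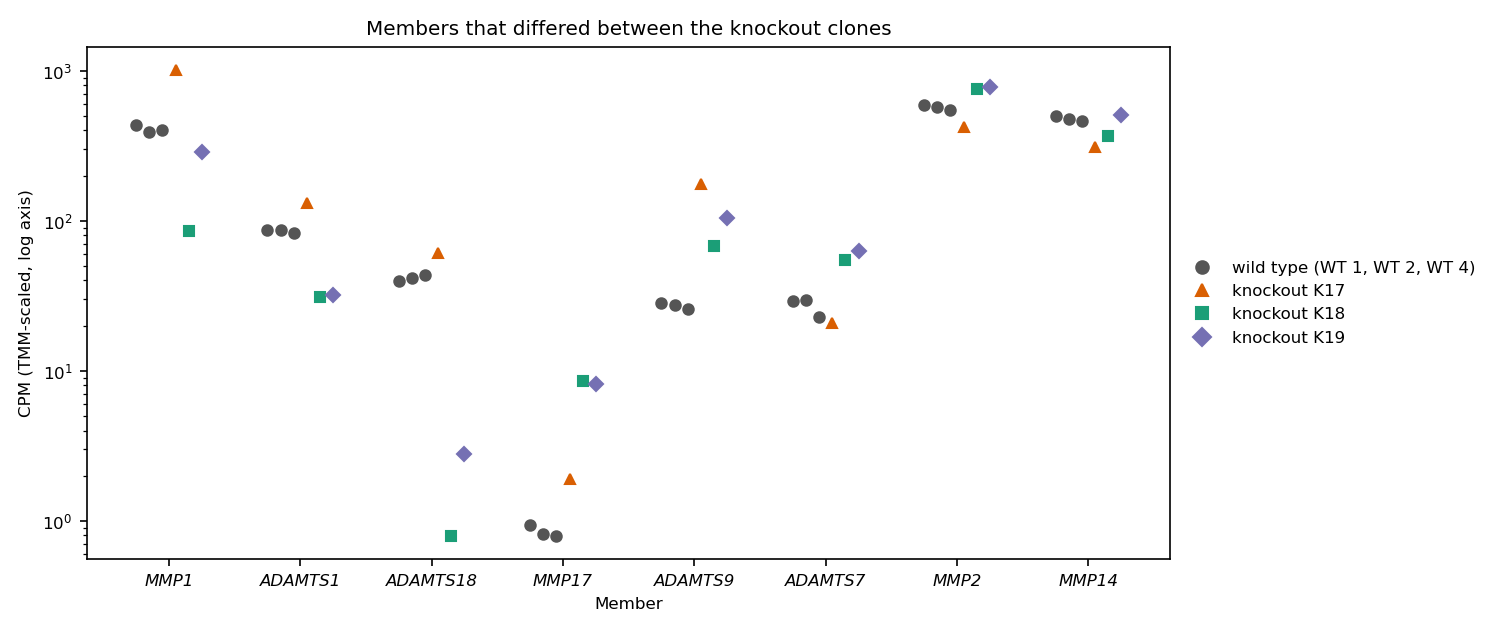
CPM on a log axis in each library for 8 family genes, wild-type libraries as grey circles and clones as coloured symbols. K17 is above the wild type and the other two clones below it for MMP1, ADAMTS1 and ADAMTS18, and K17 is the lowest library for MMP2, ADAMTS7 and MMP14.

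Genes whose products work with these families were counted from lists. The background for each list is the share of all genes tested, 18% called higher and 20.8% called lower. Of 22 tested genes for the activation and inhibition of MMPs, 7 rose and 8 fell (median log2 fold change -0.17). The urokinase gene PLAU rose from 84.8 ± 5.12 to 284 ± 27.6 CPM (adjusted p = 7.26e-05), as did the general protease inhibitor gene A2M, from 0.430 ± 0.0205 to 9.80 ± 3.94 CPM (adjusted p = 0.000434). PCSK6, a proprotein convertase gene, fell from 12.2 ± 0.263 to 0.197 ± 0.102 CPM (adjusted p = 6.24e-05). So did the integrin gene ITGAV, from 547 ± 32.8 to 202 ± 35.9 CPM (adjusted p = 0.000592). RECK, a membrane-anchored MMP inhibitor gene named after its values were seen, fell by 0.50 in log2 units (adjusted p = 0.0119).

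Of 11 tested cofactors of ADAM sheddases, 5 rose and 1 fell, against 18% and 20.8% of all genes tested. RHBDF1 and FRMD8, which take part in the traffic of ADAM17, rose by 1.44 and 0.98 in log2 units (adjusted p = 0.00174 and 0.0189). TSPAN15, a tetraspanin that partners ADAM10, fell by 0.59 (adjusted p = 0.0297). Among 10 tested partners of ADAMTS and tolloid proteases none rose and 4 fell, LTBP1 by 2.14 and SDC4 by 0.70 (adjusted p = 0.00138 and 0.000401).

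Of 24 tested endothelial genes for substrates of sheddases, 13 rose and 2 fell, against 18% and 20.8% of all genes tested. Their median log2 fold change was 0.75. THBD and KDR rose by 3.57 and 1.28, while VCAM1 fell by 3.88 and HBEGF by 0.44 (adjusted p = 6.39e-05, 9.24e-05, 0.00339 and 0.00721). Of 14 tested proteoglycan and matrix substrates 3 rose and 5 fell. VWF rose by 1.30, and FN1 and COL4A1 fell by 2.40 and 1.72 (adjusted p = 0.00890, 4.98e-05 and 0.000526). Versican (VCAN), the ADAMTS substrate named above, measured 38.5, 30.8 and 33.5 CPM in the wild type against 16.7, 1.30 and 7.85 CPM in the clones K17, K18 and K19. All clones lay below the wild type, but with a 12.8-fold range among them the difference of -1.99 was not called (95% interval -3.77 to -0.21, adjusted p = 0.0740). Aggrecan (ACAN) had at most 2 counts in any library.

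The authors' deposited table of differential expression held 54 family genes, of which 10 were higher and 9 lower at an adjusted p below 0.05, against 14.4% and 13.8% of all its genes (28.3% together). Of the 19 called by edgeR 18 were called there in the same direction. TIMP3, which the filter of the main edgeR fit removed, was called in the authors' deposited table (log2 fold change 1.77, adjusted p = 0.00252). ADAMTS17 was called in the main edgeR fit and not in that table. Without the filter, edgeR called 11 family genes higher, against 10 in the main fit. The gene gained was not among the 36 tested in the main fit.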

How the data were processed

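RNA of 6 CI-huVEC samples, 3 of them CCM3 knockout clones, was sequenced from stranded mRNA libraries, per the labels' protocols. The submitters' processing notes name STAR, HTSeq and the builds GRCh37 and hg19. No strand setting of the counting is given in these sources. The authors deposited raw counts per gene symbol and FPKM (scaled to gene length and depth), with column names as units per the file headers. The authors' deposited comparison gives a mean normalised signal, log2 fold changes and p-values per gene.

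From the counts, edgeR 4.0.16 (R 4.3.3) fitted a robust quasi-likelihood model on the group after TMM scaling and filterByExpr (minimum count 10, minimum total 15), with Benjamini-Hochberg adjustment over all genes tested. CPM used the same scaling, and exact counting intervals and floors of 3 counts cover counting error only. Alternatives used DESeq2 1.42.0, limma 3.58.1 on counts and on log2(FPKM + 1), other filters and scalings, a GC-content trend removed per library, and each library left out. The fit was tested on simulated data. Values per library were given for called family genes of at least 5 CPM in a group. For genes of that level not called, some values are group means, and accounts of the others are shorter. A planned split of ADAM genes by a protein motif was not made, and roles are background knowledge. The members and lists were chosen with earlier results of these data known. Promoter sequences and coordinates are from RefSeq (GRCh38.p14), a build other than that of the counts. Values of some listed genes are not reported here.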

Additional observations from a re-analysis of the deposited data

How the results depend on the processing

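Of the 19 family genes called, 12 kept their call and direction in all 14 alternatives: ADAM11, ADAM12, ADAM15, ADAM23, ADAMTS4, ADAMTS6, ADAMTS9, ADAMTS12, MMP10, MMP28, TIMP1 and TLL1. With each library left out in turn, family genes called higher ranged from 5 to 16 (10 with all libraries; 7, 6 and 5 without WT 1, WT 2 and WT 4, 16 without K17) and those called lower from 7 to 12. Over all genes the ranges were 1370 to 4776 higher and 1650 to 4491 lower, and over the partner lists 20 to 38 higher and 18 to 25 lower. The cause was not tested. ADAM9 also lost its call with DESeq2 size factors (adjusted p = 0.0585), without a filter (0.0579) and with a 1 CPM filter (0.0612), all in edgeR. No called gene reversed. Among genes not called, MMP1 turned to -0.52 with limma on FPKM, -0.48 with limma-voom and -1.12 without K17, in a leave-one-out range of -1.12 to 0.69. MMP11 turned to 0.0030 with DESeq2 size factors, 0.0302 with the 1 CPM filter, 0.06 without WT 2 and 0.22 without K17, in a range of -0.24 to 0.22. After GC-trend removal ADAM32 turned to 0.0056, ADAMTS10 to -0.11, ADAMTS13 to -0.20 and ADAMTS7 to -0.0096. At this depth, a family gene without counts in a library is not shown to be absent, as up to 3 counts are allowed. Levels under 3 counts are poorly determined. No paired analysis was possible because the labels' numbers are not shared between the groups.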
